A study of Triticum aestivum with 24 samples.

Results

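Recovery after heat was followed here within heated wheat: leaf RNA of heated plants at 4 days after treatment (4 DAT) was set against leaf RNA of heated plants at 1 DAT, with 4 libraries each, chosen by the heat label and the day in the library titles. These are 8 of the 24 libraries of the series. All plants were bread wheat (Triticum aestivum) of the cultivar Chinese Spring, from seed of 1 selfed plant. Heated plants had spent 5 days at 37 °C from the boot stage, well watered, and then returned to the cabinet regime of 16 h light at 18 °C and 8 h dark at 16 °C, under which control plants stayed throughout. Each treatment had 72 plants, and every plant was sampled at 0, 1 and 4 DAT. The study describes pools of 18 plants per replicate for its small RNA libraries. That the mRNA libraries came from the same pools was inferred from their equal labels, so a library at 4 DAT and the same-numbered library at 1 DAT were taken as leaves of the same plants. The test ran on 54517 transcripts, of which 370 carry annotation text in the microRNA target table of the study, and the named members come from these.

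Heat above the growth optimum unfolds proteins, damages membranes and photosystems, and shifts translation and redox balance. When the temperature returns to normal, leaves rebuild these systems, and transcripts raised or lowered by the stress move back at different speeds. MicroRNAs are small RNAs that pair with a transcript over most of their length and lead to its cleavage in plants. The annotation text used here came from transcripts that the study listed as targets of such cleavage. The study identified them by sequencing the ends of cleaved RNA (the degradome), and that evidence was not examined here. The annotated members are therefore listed candidates, called targets below, and not a sample of all wheat genes.

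The sequences that tied the members to their microRNAs are shown for several of those the results turn on, because several fallen members shared a microRNA family. All were copied from the study's tables. In each mature microRNA the seed, bases 2 to 8 from the 5′ end, is in capitals, and in each site, also written 5′ to 3′, the capitals are the bases that form a Watson-Crick pair with the microRNA.
miR1137-310-5p: aAATAGATgacccaactttgtact
site in copper-transporting ATPase (7A): AGTAtAAAGTTGaGTCATCTATTT
site in methionine--tRNA ligase (4A): AaTACAAAGTTaaGTCATCTATTT
site in 50S ribosomal protein L5 (1D): AaTACAAAGTTGcactATCaATTT
miR1137-26-3p: cATCTATTttggaacggaggg
site in 60S ribosomal protein L36 (1B): CCCTCCGTTCCAAAATAGATG
miR1122-1760-5p: tCTTAGATttgtctacatacggat
site in fructokinase-2 (3B): ATtCGTATtTAGAtAAATCTAAGA
miR398-1.2-3p: tTGTGTTCtcaggtcacccct
site in superoxide dismutase [Cu-Zn] (2B): cttGGTGACCTGgGAACACtA
miR9662-1.6-3p: tGAACATCccagagccacc
site in TatC (3A and 3B, the same bases in both): GGTGGtgCgtGGATGgTCA
Over the 26 annotated members called below, the best-paired site had between 0 and 6 bases without a Watson-Crick pair. For 3 of these members the best-paired site was the one for miR1137-310-5p. Of its 24 bases, 22 were paired in the copper-transporting ATPase, 21 in methionine--tRNA ligase and 18 in L5. The levels of the microRNAs themselves were not analysed here.

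Total counts lay between 5403461 and 11426455 in the 4 DAT heated libraries, against 7775659 and 11872826 in the 1 DAT heated libraries (exact two-sided permutation test, p = 0.343, where the smallest p that 4 against 4 allows is 0.0286). Libraries correlated across transcripts at 0.826 to 0.883 within 4 DAT, 0.822 to 0.89 within 1 DAT and 0.797 to 0.859 between the days. The 6 photosynthetic leaf markers summed to 4996 ± 1774 CPM (counts scaled to each effective library size) at 4 DAT and 5931 ± 1848 CPM at 1 DAT (SD, n = 4 each, exact permutation p = 0.486), mostly through the Rubisco small chain (mean 4290 CPM at 4 DAT and 5193 CPM at 1 DAT), with geranylgeranyl reductase at 661 and 684 CPM, while the carbonic anhydrase transcript on the list had at most 1 count in any heated library. Spike and pollen markers were at or near 0 in every heated library, and 7 markers of dividing cells summed to 18.3 ± 3.04 CPM at 4 DAT, against 22.0 ± 1.03 CPM at 1 DAT (exact permutation p = 0.0857). A single transcript, TraesCS1A01G000100.1, held over 1% of the counts in 4 libraries of the series: 2 of 4 at 4 DAT heated (replicates 2 and 4, 4.57% and 3.67%), 1 of 4 at 1 DAT heated (replicate 3, 6.95%) and 1 control library at 4 DAT (4.34%). With the log2 share of this transcript as a covariate, 2857 transcripts were called between 4 and 1 DAT in heated leaves; the counts without these 4 libraries are given with the results. In bulk leaf RNA, fewer cells of a type and less RNA per cell cannot be told apart.

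More transcripts of heated leaves fell than rose between 1 and 4 DAT. Of the 54517 transcripts tested, 3757 passed an adjusted p of 0.05 in edgeR's quasi-likelihood test, which is 6.89% of all tested. The fallen transcripts numbered 2283 (4.19%), with a median log2 fold change of -1.06, and the risen ones 1474 (2.70%), with a median of 0.89. At least 2-fold changes made up 1865 of the calls, 1251 lower and 614 higher, and 278 fell and 225 rose at least 4-fold. In 2063 of the fallen transcripts (90.4%) and 1235 of the risen ones (83.8%) the 4 libraries of 4 DAT did not overlap the 4 of 1 DAT, against 7.40% and 5.36% of all transcripts tested in these directions and 12.8% in all. With the pool of plants as a replicate block, 2225 transcripts were called (1417 lower, 808 higher), and 2176 of them were among the 3757. Without the 4 libraries rich in TraesCS1A01G000100.1, 1057 transcripts were called, 750 lower and 307 higher, and without any single heated library the count lay between 2123 (without 4 DAT replicate 2) and 3816 (without 4 DAT replicate 4). It also fell by more than 1.5 times without 1 DAT replicate 1 (2319), 1 DAT replicate 4 (2292) or 4 DAT replicate 3 (2326). Every one of the 3757 calls kept its sign in each of these fits.

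What the moving transcripts had done in the heat was read from the contrast of heated with control leaves at 0 DAT, taken at the end of the stress. Its libraries are in neither group compared between 1 and 4 DAT, but they entered the same fit, with its filter, scaling and spread. Of the 2283 transcripts that fell, 1248 (54.7%) had been higher in heated than in control leaves at 0 DAT and 79 (3.46%) lower. Of the 1474 that rose, 757 (51.4%) had been lower at 0 DAT and 36 (2.44%) higher. Over all transcripts tested, 11.0% were called higher and 13.3% lower at 0 DAT. The fallen transcripts had a median log2 fold change of 0.73 at 0 DAT and the risen ones of -0.67. Seen from the other side, 20.9% of the transcripts raised at 0 DAT fell between 1 and 4 DAT, and 10.4% of those lowered at 0 DAT rose. Under the replicate block the opposite-direction calls numbered 1268, against 2005 without it, and the shares were 57.7% of the fallen and 55.8% of the risen transcripts. With each contrast fitted on its own libraries alone they numbered 1320 (61.0% of the fallen and 57.3% of the risen), and without the 4 libraries rich in TraesCS1A01G000100.1 689. They numbered 1257 without heated 1 DAT replicate 4, and 1273 and 1296 without heated 4 DAT replicates 2 and 3. If equal numbers mark the same pools, the heated libraries of 0, 1 and 4 DAT share plants.

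**Figure D1:**
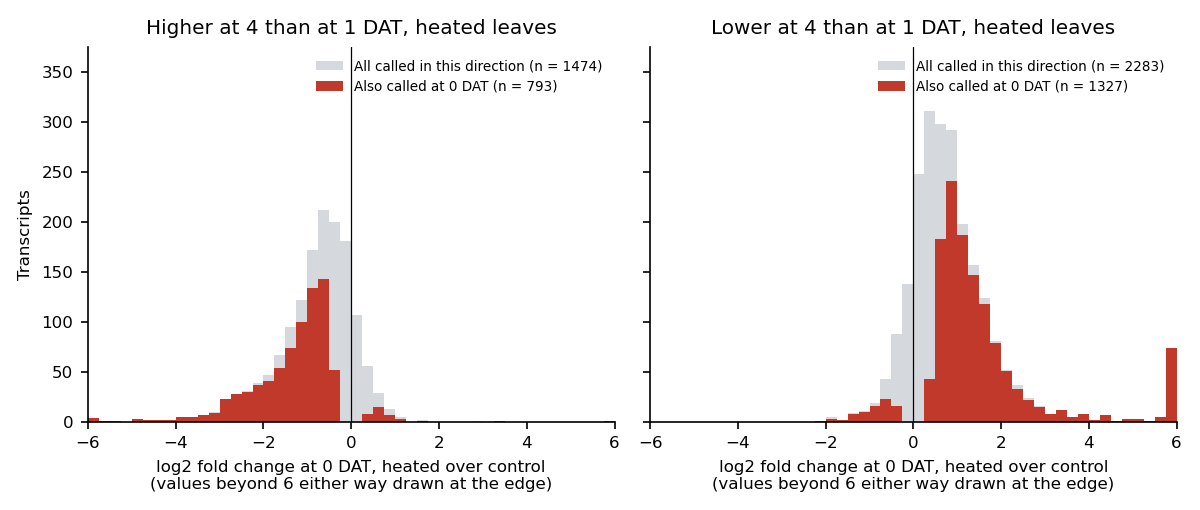
Histograms of the log2 fold change between heated and control leaves at 0 DAT (x axis, values beyond 6 drawn at the edge) for transcripts that rose (left, n = 1474) and fell (right, n = 2283) between 1 and 4 DAT in heated leaves; the y axis counts transcripts, and red marks those also called at 0 DAT. The risen transcripts centre on -0.67 and the fallen ones on 0.73.

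At 1 DAT, in a comparison that shares the heated 1 DAT libraries and so is given only as values, the fallen transcripts had a median log2 fold change of heated over control leaves of 1.09 and the risen ones of -0.81. At 4 DAT, sharing the other heated libraries, these medians were 0.03 for both. Over all transcripts, 7358 differed between heated and control leaves at 1 DAT (13.5%; 7.32% higher and 6.18% lower) and 98 at 4 DAT (0.180%). Between 0 and 1 DAT in heated leaves, 4909 had risen (9%) and 3007 fallen (5.52%).

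Control leaves of the same age were the check on what unheated plants did over these days. In them edgeR's quasi-likelihood test called 0 transcripts (0% of 54517) between 4 and 1 DAT. At an unadjusted p under 0.05 there were 2923 transcripts in control leaves, against 11433 in heated leaves, and DESeq2 called 45 in control leaves. Where nothing changes, a share of about 0.05 of all transcripts would pass that unadjusted threshold. The 4 and 4 control libraries did not overlap for 2.35% of transcripts, where a random order of libraries would give a share of 0.0286. The test of the difference between the heated and the control change called 1015 transcripts (1.86% of those tested), 845 with a more negative change in heated leaves and 170 with a more positive one. Of these, 784 fell and 155 rose in heated leaves. Transcripts called in heated leaves but not among the 1015 are therefore not shown to have changed differently from control leaves. The replicate block left 396 of these differences (355 negative, 41 positive), and 264 were called without the libraries rich in TraesCS1A01G000100.1. Without single libraries the count lay between 578 and 1228, and it fell below 1015 by more than 1.5 times without heated 1 DAT replicates 1 (603) and 4 (578), heated 4 DAT replicate 2 (601) and control 4 DAT replicates 1, 2 and 3 (647, 641 and 664).

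Among the 370 annotated transcripts, 26 were called, 18 lower and 8 higher at 4 than at 1 DAT. This is 7.03% of them, close to the 6.89% of all transcripts. The difference from control leaves was called for 8 of the 26, 7 negative and 1 positive. All 26 kept their direction in each alternative that gave them a value. Without the 4 libraries rich in TraesCS1A01G000100.1, 8 of the 26 stayed called: fructokinase-2, the RNA helicase, the MurNAc tripeptide ligase, the lipase, L36, RMD1 and TatC of 3A among the fallen, and phosphopantothenoylcysteine decarboxylase among the risen. Names followed by a chromosome, such as 3B or U for unassigned, give the wheat subgenome copy.

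Several genes of protein synthesis fell. Of the 15 tested members of this list 4 were lower and 0 higher, where 4.19% of all transcripts were lower and 2.70% higher, and 11 of 15 had a negative fold change (median -0.20, against 0.00 over all transcripts and 0.17 for the list in control leaves). The difference from the control change was called for 3 of the 4. All 4 have sites for miR1137, whose 62 tested targets held 5 fallen and 0 risen transcripts, a number of calls near the 6.89% of all transcripts.

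Methionine--tRNA ligase (TraesCS4A01G051900.2), which loads the amino acid that starts every protein, had 16.8, 15.6, 15.1 and 19.0 CPM in heated leaves at 4 DAT, against 40.8, 29.3, 33.9 and 34.9 CPM at 1 DAT. The groups did not overlap, and the 4 DAT libraries lay close together. The log2 fold change was -1.07 ± 0.22 (SE, edgeR adjusted p = 0.0046). In control leaves it averaged 10.8 ± 1.92 CPM at 4 DAT and 8.55 ± 2.47 CPM at 1 DAT (SD, n = 4 each), and the difference between the changes was -1.41 ± 0.31 (adjusted p = 0.021, 0.079 with the replicate block). At 0 DAT it had not been called higher in heated leaves, with 14.5 ± 4.82 CPM, against 11.9 ± 1.18 CPM in control leaves, so its high level was seen at 1 DAT.

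Among the ribosomal proteins, 60S ribosomal protein L36 (TraesCS1B01G294200.1), part of the large cytosolic subunit, had 15.2, 13.9, 13.7 and 13.9 CPM at 4 DAT, against 25.7, 26.5, 19.0 and 32.9 CPM at 1 DAT in heated leaves. Every 4 DAT library lay below every 1 DAT library, and the fold change was -0.88 ± 0.18 on the log2 scale (edgeR adjusted p = 0.0042). Control leaves averaged 16.1 ± 3.24 CPM at 4 DAT and 13.3 ± 2.20 CPM at 1 DAT, and the difference of -1.15 ± 0.25 was called (adjusted p = 0.019, 0.062 with the block). The 50S ribosomal protein L5 (TraesCS1D01G128800.1), by its name a subunit of the bacterial type of ribosome that plastids carry, had 6.64, 8.73, 8.24 and 5.75 CPM at 4 DAT, against 10.9, 13.2, 9.76 and 17.4 CPM at 1 DAT. Its groups did not overlap either, with a log2 fold change of -0.81 ± 0.19 (adjusted p = 0.011) and a difference from control leaves of -1.15 ± 0.26 (adjusted p = 0.024, 0.079 with the block). The 40S ribosomal protein S24 (TraesCS6B01G234000.1), of the small subunit, had 3.37, 3.53, 6.20 and 4.16 CPM at 4 DAT, against 6.19, 7.47, 6.81 and 11.9 CPM at 1 DAT. Here 1 library of 4 DAT overlapped the 1 DAT range, the change was -0.89 ± 0.25 (adjusted p = 0.034), and the call was lost without any 1 of 4 libraries (1 DAT replicate 4 and 4 DAT replicates 1, 2 and 4), with adjusted p up to 0.14.

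The list of ribosome biogenesis and other RNA work had 1 fallen and 0 risen of 9 tested. Over all transcripts 4.19% fell and 2.70% rose. Of the 9, 7 were negative, against 27054 of all 54517 transcripts, and a list this small does not show a shared fall. The fallen member, ATP dependent RNA helicase (TraesCS3B01G568500.1), of a protein class that unwinds RNA, had the smallest adjusted p of the annotated members. It had 16.8, 14.6, 13.9 and 18.4 CPM in heated leaves at 4 DAT, against 45.1, 35.3, 39.0 and 44.0 CPM at 1 DAT. Every 4 DAT library lay far below every 1 DAT library. The log2 fold change was -1.36 ± 0.16 (edgeR adjusted p = 5.1e-05), and the difference from the control change was -1.76 ± 0.23 (adjusted p = 0.00052, 0.0091 with the block). It had already been high at 0 DAT, with 31.5 ± 7.10 CPM in heated leaves and 12.4 ± 0.695 CPM in control leaves (adjusted p = 3.3e-06). At 4 DAT control leaves held 15.2 ± 2.46 CPM, close to the 15.9 ± 2.09 CPM of heated leaves.

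**Figure D2:**
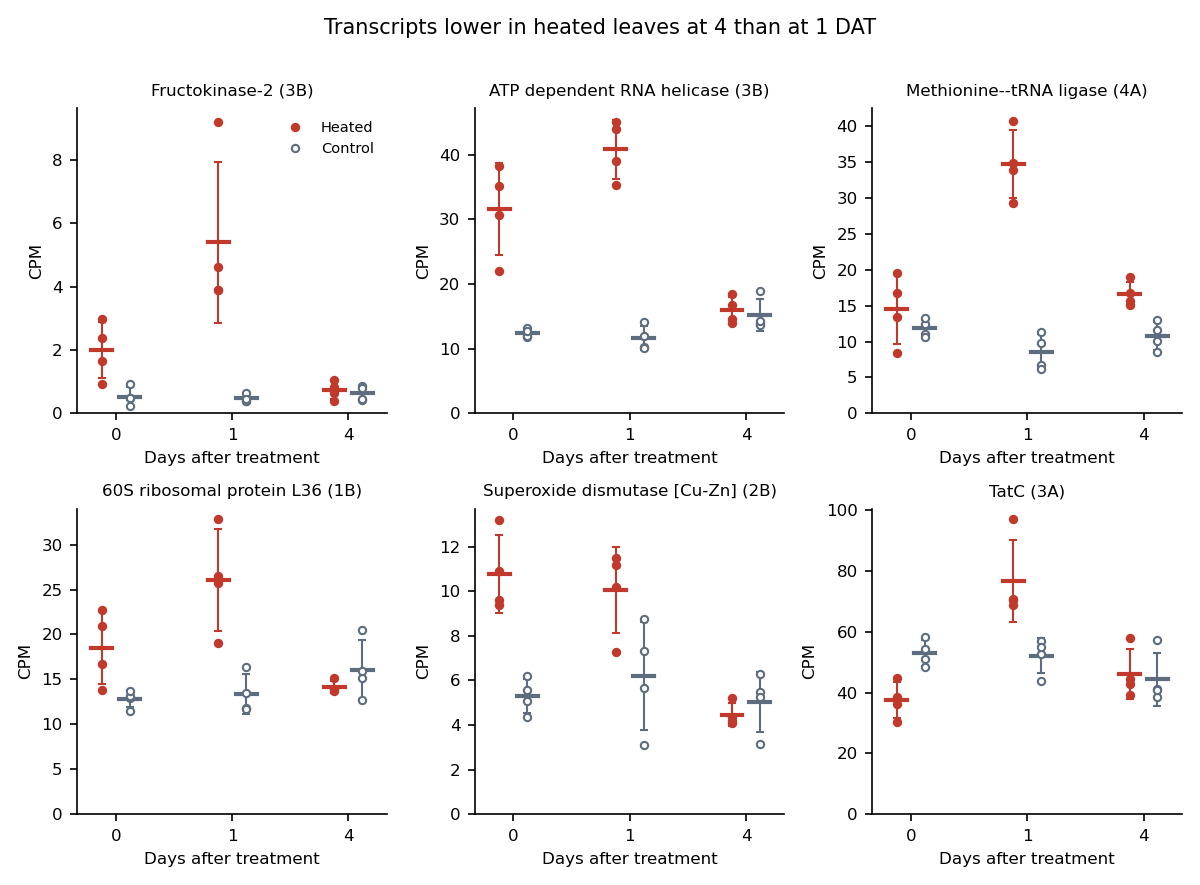
CPM per library (points), mean (bar) and SD (whiskers) of 6 transcripts that fell between 1 and 4 DAT in heated leaves, plotted against days after treatment (x axis) for heated (red, left of each day) and control leaves (grey, open). The heated mean is highest at 1 DAT in every panel but that of superoxide dismutase, such as 29.3 to 40.8 CPM in the 4 libraries of methionine--tRNA ligase.

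The largest fall among annotated members was that of fructokinase-2 (TraesCS3B01G397500.1), an enzyme that phosphorylates fructose on its way into glycolysis and starch. It had 1.05, 0.832, 0.652 and 0.396 CPM at 4 DAT, against 3.90, 3.89, 4.60 and 9.18 CPM at 1 DAT in heated leaves. The groups did not overlap, and 1 DAT replicate 4 stood well above the other 3. The log2 fold change was -2.84 ± 0.44 (edgeR adjusted p = 0.00057). Control leaves held 0.637 ± 0.231 CPM at 4 DAT and 0.476 ± 0.120 CPM at 1 DAT, and the difference of -3.27 ± 0.64 was called (adjusted p = 0.0095, 0.053 with the block). It was the only one of 3 tested sugar and glycolysis members to change.

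A transcript annotated as UDP-N-acetylmuramoyl-L-alanyl-D-glutamate--2, 6-diaminopimelate ligase (TraesCS1D01G211600.1), the name of a bacterial enzyme of wall peptide synthesis whose plant relatives act in the transcription of plastid genes in Arabidopsis, fell by 1.95 ± 0.30 on the log2 scale (edgeR adjusted p = 0.00058). Its levels were 5.17, 6.24, 6.12 and 6.34 CPM at 4 DAT, against 23.2, 18.2, 21.7 and 28.6 CPM at 1 DAT. In control leaves it averaged 4.27 ± 1.06 CPM at 4 DAT and 2.21 ± 1.37 CPM at 1 DAT, so the means moved in opposite directions, and the difference of -2.92 ± 0.45 was called (adjusted p = 0.0016, 0.0091 with the block). With it, 3 of 15 tested members of the plastid list fell (2 with the replicate block) and 0 rose, where 4.19% of all transcripts fell.

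The other fallen members of that list were the 3A and 3B copies of 1 gene, TatC, the membrane core of the twin arginine pathway that carries folded proteins into the thylakoid. TatC of 3A (TraesCS3A01G193600.1) had 44.6, 39.3, 42.8 and 57.9 CPM at 4 DAT, against 97.2, 70.5, 70.7 and 68.7 CPM at 1 DAT (-0.74 ± 0.16 on the log2 scale, edgeR adjusted p = 0.0071). TatC of 3B (TraesCS3B01G224200.1) had 40.3, 40.8, 42.9 and 43.4 CPM, against 76.3, 53.5, 66.6 and 55.2 CPM (-0.59 ± 0.16, adjusted p = 0.026). Neither pair of groups overlapped. The 3B call was lost with the replicate block (adjusted p = 0.058) and without any 1 of 5 libraries (1 DAT replicates 1 and 3, 4 DAT replicates 1, 2 and 3, adjusted p up to 0.10). Unlike most fallen transcripts, both had been lower in heated leaves at the end of the stress: 37.6 ± 5.97 CPM, against 53.1 ± 4.24 CPM in control leaves for 3A (adjusted p = 0.025), and 24.2 ± 3.60 CPM, against 45.0 ± 3.96 CPM for 3B (adjusted p = 0.00024). In heated leaves TatC thus stood lowest at 0 DAT, highest at 1 DAT and between these at 4 DAT. The differences from the control change were -0.51 ± 0.22 and -0.61 ± 0.22 and were not called (adjusted p = 0.30 and 0.19). These 2 were the fallen ones among 8 tested targets of miR9662, where 4.19% of all transcripts fell. The median of the 8 was -0.61, against 0.00 over all transcripts. As copies of 1 gene with the same site, the 2 do not show a fall shared by these targets.

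Single redox and metal genes were called in either direction. Of 12 tested redox members 1 fell and 1 rose, and of 5 metal members 1 fell and 1 rose. Over all transcripts 4.19% fell and 2.70% rose, and lists this small do not show a shared change. The difference from the control change was called for 0 members of either list. Superoxide dismutase [Cu-Zn] of 2B (TraesCS2B01G417000.1), which turns superoxide into hydrogen peroxide, had 4.11, 4.16, 5.22 and 4.36 CPM at 4 DAT, against 10.2, 7.28, 11.2 and 11.5 CPM at 1 DAT in heated leaves. The groups did not overlap and the change was -1.16 ± 0.25 (log2, edgeR adjusted p = 0.0076). It had been raised at 0 DAT, with 10.8 ± 1.74 CPM in heated leaves and 5.31 ± 0.773 CPM in control leaves (adjusted p = 0.0036). The difference from the control change was not called (-0.86 ± 0.35, adjusted p = 0.26). The 2A copy (TraesCS2A01G399000.1) averaged 3.79 ± 0.740 CPM at 4 DAT and 5.54 ± 0.910 CPM at 1 DAT and did not pass (-0.53 ± 0.25, adjusted p = 0.23). These are the 2 tested targets of miR398.

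Glutaredoxin family protein (TraesCS3A01G158800.1), of a family of small thiol enzymes that reduce disulfides with glutathione, had 106, 105, 135 and 90.6 CPM at 4 DAT, against 82.9, 65.2, 67.2 and 76.4 CPM at 1 DAT. Every 4 DAT library was higher, by 0.58 ± 0.14 on the log2 scale (edgeR adjusted p = 0.015), although the call was lost without 4 DAT replicate 3 (adjusted p = 0.070). It had been low in the heat, at 63.2 ± 2.48 CPM in heated leaves and 115 ± 13.4 CPM in control leaves at 0 DAT, and at 4 DAT heated leaves had 109 ± 18.8 CPM, against 120 ± 14.7 CPM in control leaves. Its difference from the control change was not called (0.51 ± 0.20, adjusted p = 0.23).

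Of the metal genes, copper-transporting ATPase (TraesCS7A01G239700.1), of a family of pumps that move copper across membranes, had 12, 11.6, 10.5 and 14.5 CPM at 4 DAT, against 19.9, 15.6, 21.5 and 19.9 CPM at 1 DAT in heated leaves. The groups did not overlap, the change was -0.67 ± 0.16 (log2, edgeR adjusted p = 0.013), and the call was lost without 4 DAT replicate 3 (adjusted p = 0.057). In control leaves it changed by -0.30 ± 0.16, and the difference of -0.36 ± 0.23 was not called (adjusted p = 0.52). PLANT CADMIUM RESISTANCE 2 (TraesCS1B01G418800.1), named after a membrane protein of zinc and cadmium transport in Arabidopsis, rose, with 21.2, 56.3, 71.6 and 20.4 CPM at 4 DAT, against 12.5, 13.0, 7.92 and 9.44 CPM at 1 DAT. The 4 DAT libraries spread widely but all lay above the 1 DAT ones (1.98 ± 0.44, adjusted p = 0.0091). Control leaves also varied, from 18.6 to 52.1 CPM at 4 DAT and from 16.5 to 42.4 CPM at 1 DAT, and the difference of 1.62 ± 0.61 was not called (adjusted p = 0.21).

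Further enzymes and membrane proteins fell. The lipase (TraesCS2D01G362500.1), of an enzyme class that cleaves lipid esters, had 10.3, 8.32, 8.40 and 13.7 CPM at 4 DAT, against 25.4, 21.2, 24.5 and 23.9 CPM at 1 DAT in heated leaves (-1.23 ± 0.20 on the log2 scale, edgeR adjusted p = 0.0011). Its 1 DAT libraries were tightly grouped above all others, and the difference from control leaves was -1.27 ± 0.29 (adjusted p = 0.026, 0.079 with the block). Of 16 tested members of secondary metabolism 2 fell and 0 rose, where 4.19% of all transcripts fell. Negative fold changes were found in 8 of the 16. Both fallen members were cytochrome P450s, haem enzymes that oxidise many small molecules, and both were listed with the same site for the same microRNA. The unassigned one (TraesCSU01G247100.1) had 18.5, 17.9, 16.8 and 10.1 CPM at 4 DAT, against 59.8, 33.2, 24.7 and 34.1 CPM at 1 DAT (-1.26 ± 0.28, adjusted p = 0.0085). The 1B one (TraesCS1B01G347700.1) had 41.3, 46.2, 69.9 and 34.7 CPM, against 151, 66.4, 76.8 and 120 CPM, so that 1 library of each day overlapped (-1.10 ± 0.28, adjusted p = 0.020, 0.077 with the block), and the call was lost without any 1 of 5 libraries (1 DAT replicates 1 and 4, 4 DAT replicates 1, 2 and 4, adjusted p up to 0.090). For neither P450 was the difference from the control change called (-1.36 ± 0.40 unassigned and -1.09 ± 0.40 on 1B, adjusted p = 0.089 and 0.19). Whether the 2 transcripts are similar enough to share reads was not tested.

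The remaining fallen members were weakly expressed or less stable. The aquaporin (TraesCS7D01G217400.1), of the water channel family, averaged 1.31 ± 0.475 CPM at 4 DAT and 3.09 ± 0.597 CPM at 1 DAT (-1.20 ± 0.32 on the log2 scale, edgeR adjusted p = 0.028), a call lost with the block (0.084) and without any 1 of 5 libraries (1 DAT replicates 1, 2 and 4, 4 DAT replicates 2 and 4, up to 0.089). The receptor kinase (TraesCS5B01G174400.1) averaged 0.569 ± 0.413 CPM at 4 DAT and 2.96 ± 2.24 CPM at 1 DAT (-2.34 ± 0.63, adjusted p = 0.027), was lost with the block (0.095) and without any 1 of 4 libraries (1 DAT replicate 4, 4 DAT replicates 1, 2 and 3, up to 0.14), and was the 1 call among 26 tested kinases. The LanC-like protein (TraesCS1B01G186500.1) averaged 0.927 ± 0.349 CPM at 4 DAT and 2.47 ± 0.915 CPM at 1 DAT (-1.37 ± 0.40, adjusted p = 0.040) and was lost without any 1 of the heated libraries except 1 DAT replicate 2 (up to 0.15). Sporulation protein RMD1 (TraesCS2A01G082000.1) had 10.9, 11.9, 8.16 and 18.8 CPM, against 23.8, 19.1, 26.5 and 20.9 CPM, with no overlap (-0.88 ± 0.22, adjusted p = 0.020), and its call was lost without any 1 of 5 libraries (1 DAT replicates 1 and 3, 4 DAT replicates 1, 2 and 3, up to 0.081).

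**Figure D3:**
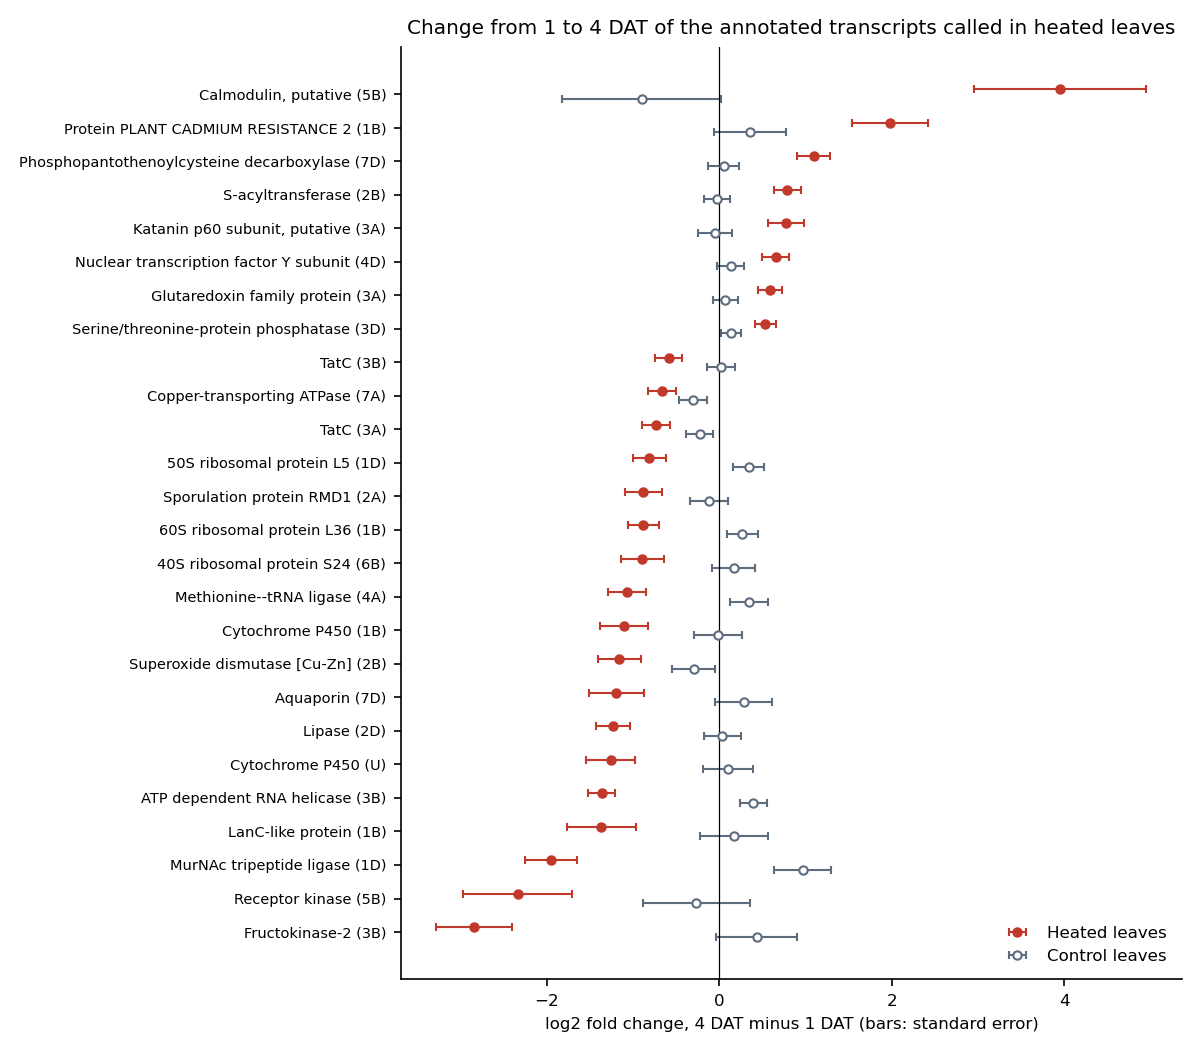
Log2 fold change from 1 to 4 DAT (x axis) with its standard error for the 26 annotated transcripts called in heated leaves (y axis), in heated leaves (red, upper of each pair) and control leaves (grey, open). Heated changes reach from -2.84 for fructokinase-2 to 3.95 for the calmodulin, and none of the control changes was called.

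The 8 risen members were mostly single members of their lists. Phosphopantothenoylcysteine decarboxylase (TraesCS7D01G163900.1), which makes a step of coenzyme A synthesis, was the 1 risen annotated member with a called difference from control leaves. It had 7.91, 7.49, 7.58 and 6.54 CPM at 4 DAT, against 3.52, 4.39, 2.21 and 3.52 CPM at 1 DAT in heated leaves. The groups stood far apart, the change was 1.10 ± 0.19 on the log2 scale (edgeR adjusted p = 0.0013), and the difference was 1.04 ± 0.26 (adjusted p = 0.041, 0.11 with the block). At 0 DAT it had not been called, with 6.19 ± 0.473 CPM in heated leaves and 6.07 ± 0.867 CPM in control leaves, so the low value was that of 1 DAT.

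The nuclear transcription factor Y subunit (TraesCS4D01G289600.1), part of a complex that binds CCAAT boxes and a target of miR169, had 10.9, 15.6, 16.1 and 12.7 CPM at 4 DAT, against 7.52, 10.5, 9.76 and 7.47 CPM at 1 DAT in heated leaves. The groups did not overlap (0.65 ± 0.16 on the log2 scale, edgeR adjusted p = 0.016), but the call was lost without any 1 of 4 libraries (1 DAT replicates 1 and 4, 4 DAT replicates 2 and 3, adjusted p up to 0.069). Heated leaves held 5.33 ± 0.830 CPM at 0 DAT, against 9.75 ± 0.184 CPM in control leaves (adjusted p = 0.0004). It was the 1 call among 9 tested NF-Y members, where 6.89% of all transcripts were called. Of these 9, 8 had a positive fold change (median 0.45), against 27334 of all 54517 transcripts. A list this small does not show a shared rise. The difference of this transcript from the control change was not called (0.52 ± 0.22, adjusted p = 0.29).

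The putative calmodulin (TraesCS5B01G480300.1), of a family of calcium sensors, had the highest fitted rise of the annotated members from very few counts: 0.105, 2.08, 3.34 and 1.39 CPM at 4 DAT, against 0.0952, 0.0997, 0 and 0.172 CPM at 1 DAT in heated leaves. The groups overlapped, since 4 DAT replicate 1 was as low as the 1 DAT libraries. The log2 fold change of 3.95 ± 1.0 (edgeR adjusted p = 0.022) was not called with the block (0.067) or without any 1 of 4 libraries (1 DAT replicates 1, 2 and 3, 4 DAT replicate 3, up to 0.080). Its site for miR1318b-1 was fully paired, 20 of 20 bases.

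The other 3 risen members were an S-acyltransferase (TraesCS2B01G585200.1), of the enzymes that attach fatty acids to proteins, a serine/threonine-protein phosphatase (TraesCS3D01G261300.1) and a katanin p60 subunit (TraesCS3A01G294400.1), of the complex that severs microtubules. The S-acyltransferase had 3.90, 4.99, 4.08 and 3.77 CPM at 4 DAT, against 2.76, 2.79, 1.84 and 2.15 CPM at 1 DAT (0.79 ± 0.16 on the log2 scale, edgeR adjusted p = 0.0063). The phosphatase had 10.9, 13.9, 13.6 and 13.7 CPM, against 9.90, 8.57, 7.55 and 9.70 CPM (0.53 ± 0.12, adjusted p = 0.0086). Neither of these overlapped. The katanin subunit had 6.54, 6.86, 6.28 and 7.73 CPM, against 3.33, 6.38, 4.05 and 2.23 CPM, with an overlap through 1 DAT replicate 2 (0.78 ± 0.21, adjusted p = 0.029), and was lost without any 1 of the other 7 heated libraries (up to 0.097).

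**Figure D4:**
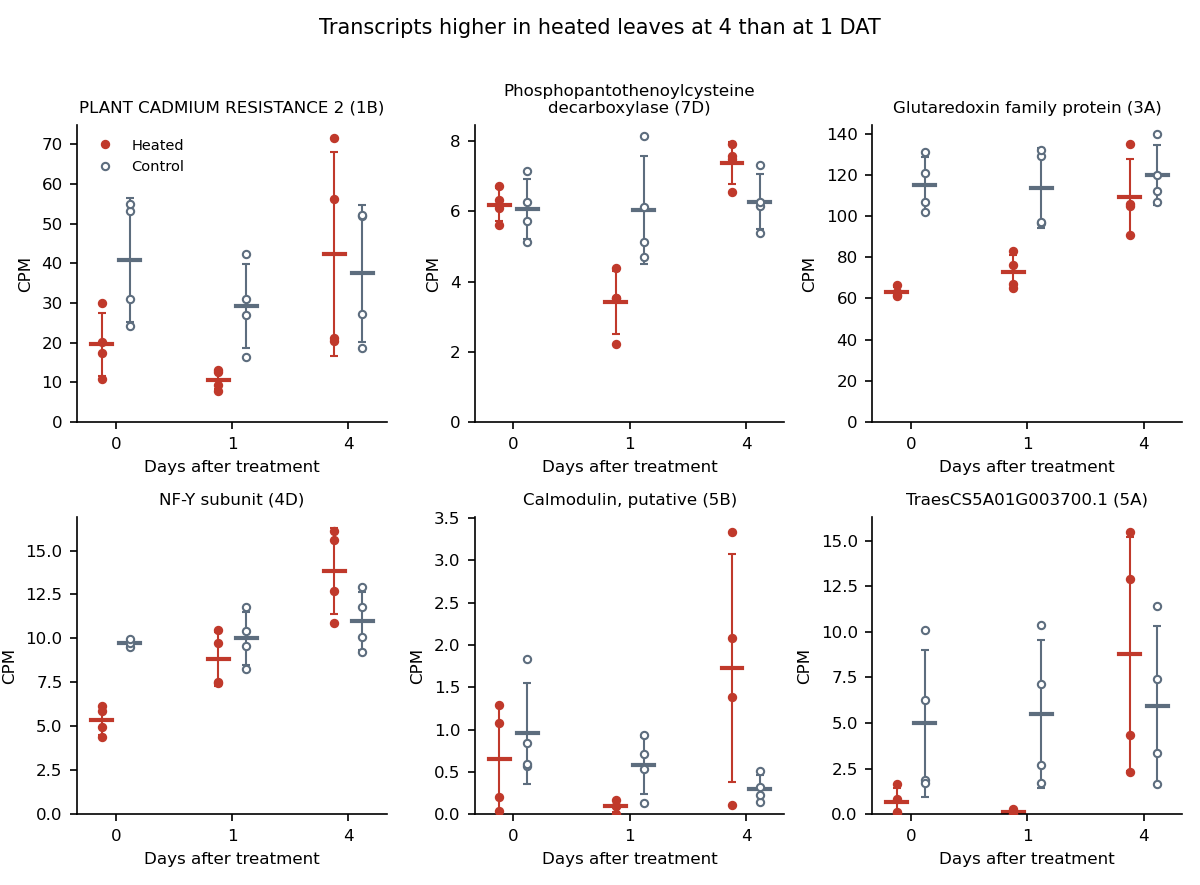
CPM per library (points), mean (bar) and SD (whiskers, cut at 0) of 6 transcripts that rose between 1 and 4 DAT in heated leaves, against days after treatment (x axis), for heated (red, left of each day) and control leaves (grey, open). Heated libraries of 1 DAT lie below those of 4 DAT except for an overlap in the calmodulin, such as 2.21 to 4.39 CPM for phosphopantothenoylcysteine decarboxylase at 1 DAT, and 4 DAT libraries of the calmodulin and TraesCS5A01G003700.1 spread widely.

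Several well-known microRNA target groups had 0 calls between 1 and 4 DAT, in lists so small that the 6.89% called over all transcripts would give fewer than 1 in each. The 3 ATP sulfurylase copies of group 5 (miR395 targets, first enzyme of sulfate assimilation) had all been lower in heated leaves at 0 DAT, with log2 fold changes of -1.51, -2.01 and -1.59. In heated leaves the 5A copy (TraesCS5A01G382900.1) had 18.8, 9.36, 16.1 and 65.2 CPM at 4 DAT, against 24.6, 26.8, 30.6 and 21.4 CPM at 1 DAT. The 5B copy (TraesCS5B01G387300.1) had 17.5, 9.56, 15.2 and 68.2 CPM, against 26.9, 30.8, 33.3 and 19.3 CPM. The 5D copy (TraesCS5D01G392300.1) had 15, 7.07, 14.4 and 45.2 CPM, against 21.5, 17.2, 25.2 and 19.0 CPM. In each, 4 DAT replicate 4 alone was far above the rest, while the other 3 libraries of 4 DAT were below every 1 DAT library, and the fitted change was near 0 (0.07 ± 0.38, -0.01 ± 0.40 and -0.03 ± 0.35, edgeR adjusted p = 0.96, 1.0 and 0.99).

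The 11 tested Squamosa promoter-binding (SPL) factors, targets of miR156, had 0 calls and a median of -0.03, and the 4 tested HD-ZIP factors, targets of miR166, 0 calls and a median of -0.26. The 6 TIR1 auxin receptors, targets of miR393, all had positive fold changes, from 0.22 to 0.51, with 0 calls (lowest edgeR adjusted p = 0.24). Of other lists, 4 of 4 tested protein folding members were negative (median -0.25), with 0 calls. Of 9 tested mTERF-like members of organelle gene expression 7 were negative (median -0.63), also with 0 calls. Over all 54517 transcripts, 27054 were negative, and lists this small do not show a shared fall. Photosynthesis (8 tested), ubiquitin (21), defence (11) and amino acid metabolism (10) held 0 calls each, where 6.89% of all transcripts were called. Lists of this size do not show that these processes stayed unchanged.

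Most of the calls had no annotation text. Among unannotated calls whose higher group averaged 5 CPM or more and whose libraries did not overlap, the highest rises were those of TraesCS5A01G003700.1 and TraesCS4D01G141500.1. TraesCS5A01G003700.1 had 2.32, 12.9, 15.5 and 4.36 CPM at 4 DAT, against 0.190, 0.299, 0 and 0 CPM at 1 DAT in heated leaves (5.93 ± 1.2 on the log2 scale, edgeR adjusted p = 0.0039). Control leaves held 5.94 ± 4.36 CPM at 4 DAT and 5.49 ± 4.04 CPM at 1 DAT, and the difference was called at 5.81 ± 1.4 (adjusted p = 0.040, 0.098 with the block). TraesCS4D01G141500.1 had 2.32, 9.77, 11.7 and 2.18 CPM, against 0, 0.598, 0 and 0 CPM (5.25 ± 0.95, adjusted p = 0.0020). Its 1 DAT level rests on 6 counts in 1 library, and the fitted change ranged from 4.77 to 9.07 without single libraries, the highest without that one (1 DAT replicate 2). It had a difference of 5.30 ± 1.2 (adjusted p = 0.024, 0.015 with the block). Both had been lower in heated leaves at 0 DAT (log2 fold change -3.00 and -2.51, adjusted p = 0.020 for each).

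The largest falls by the same rule were those of 2 transcripts that are one of several isoforms of their gene. TraesCS4A01G105000.2 had 0 CPM in all 4 libraries of 4 DAT, against 0.667, 7.47, 7.92 and 6.09 CPM at 1 DAT in heated leaves, at least 54.9-fold lower when 3 counts over the 4 DAT group are taken as the floor (edgeR adjusted p = 0.033), and at least 33.6-fold lower without 4 DAT replicate 3. In control leaves the pattern was the reverse, with 7.28, 2.69, 7.51 and 2.95 CPM at 4 DAT, against 0 CPM in all 4 libraries of 1 DAT. Summed over the isoforms of its gene, the log2 fold change in heated leaves was 0.02. Heated leaves at 0 DAT had 0, 4.82, 6.98 and 4.65 CPM of this isoform, so it was also absent from a library there. TraesCS2D01G286200.7 had 0 CPM in all 4 libraries of 4 DAT, against 15.1, 1.59, 4.60 and 4.38 CPM at 1 DAT, at least 70.3-fold lower (adjusted p = 0.036, 0.11 with the block). Of its 251 counts at 1 DAT, 159 came from replicate 1, without which the bound was 35.7-fold, and it was 43.0-fold without 4 DAT replicate 3. Both calls were lost without any 1 of 7 of the 8 heated libraries (adjusted p up to 0.086 and 0.095). Both bounds cover counting alone and leave out the spread between libraries. The sharing of reads between isoforms was estimated by the authors' software, and its part in these values was not tested.

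The gene of the second was also the 1 gene of 5791 with at least 2 tested transcripts in which 1 transcript rose and 1 fell; it is named for that, after its values were seen. Its isoform TraesCS2D01G286200.6 had 60.4, 45.5, 41.3 and 92.8 CPM at 4 DAT, against 19.3, 38.5, 37.9 and 22.3 CPM at 1 DAT (1.03 ± 0.24 on the log2 scale, edgeR adjusted p = 0.012, 0.049 with the block), with no overlap. In 23 genes at least 2 transcripts were called the same way. In all, the calls fell in 3732 genes, 36 fallen transcripts had 0 counts in every 4 DAT heated library, and 16 risen ones had 0 counts in every 1 DAT heated library.

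The calls were spread over the genome. Of the tested transcripts of subgenome A 6.95% were called, of B 6.71% and of D 7.07%, and single chromosomes ranged from 6.34% (2B and 6B) to 7.83% (4B). Their share differed with the level: 1.40% of transcripts under 1 CPM were called, 3.74% of those between 1 and 5 CPM, 10.7% between 5 and 20 CPM, 18.0% between 20 and 100 CPM and 13.1% over 100 CPM, so a transcript with few counts that was not called may have changed undetected at this depth.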

How the data were processed

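The authors deposited a table of estimated counts per transcript for 24 mRNA libraries (2 treatments, 3 times, 4 replicates), made from paired reads by pseudoalignment. The submitters' processing notes list Trimmomatic and kallisto with no versions; the transcript index was not given in the sources used here. Fractional values (off by over 0.001) made up 38% of the deposited table, so values were rounded before testing. Wheat's near-identical gene copies share reads, and the spread between replicates leaves this uncertainty out. There were 137056 transcripts, from 110790 genes. Transcripts passing filterByExpr (minimum count 10, minimum total 15) numbered 54517. These were scaled by TMM and fitted with 6 group means over all 24 libraries in edgeR 4.0.16 (limma 3.58.1, R 4.3.3), tested two-sided by quasi-likelihood and adjusted after Benjamini and Hochberg over all transcripts. Calls are those with an adjusted p under 0.05. Each SE was approximated from the log2 fold change and its F statistic. The study used edgeR on its small RNA libraries; its methods give no model for the mRNA libraries.

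Annotation text came from the study's microRNA target table, held here in shortened form (614 transcripts, 595 with text, 370 of these tested), and no coordinates were used. Gene lists were made by searching that text. Named transcripts are all annotated calls (there were at most 40) and every tested member of 5 microRNA target lists. Added to these are the 2 highest and 2 lowest unannotated calls that did not overlap and averaged 5 CPM or more in 1 group. The text gives the SPL, HD-ZIP and TIR1 lists mostly as list values, not member by member. The members and lists were chosen with earlier results of these data known. Same-numbered heated libraries were taken as the same plants, so a fit with a replicate block for each pool was added. Their deviations from the group means correlated at -0.033, -0.031, -0.23 and -0.22 for numbers 1 to 4. The highest correlation of each 4 DAT library with a differently numbered 1 DAT library was larger, at 0.078, 0.033, 0.19 and 0.2. The pairing therefore rests on the sampling plan and is not seen in these values. Where same-numbered libraries are the same plants, the p-values of the fit without the block leave this pairing out. Either way they measure only the spread between these libraries. Alternatives were other scalings, filters, DESeq2 1.42.0, a likelihood ratio test, fewer libraries, a covariate, counts per gene and leaving out each library. The script was tested on simulated data.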

Additional observations from a re-analysis of the deposited data

Results flagged for a closer look

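In 118 groups of 4 values (levels of the named transcripts and measures of the libraries, heated leaves), 1 library stood apart from the other 3 in 11, where chance flags about 1 in 20 groups; the groups come from the same 8 libraries and are not independent. At 4 DAT these were replicate 4 for ATP sulfurylase of 5A (TraesCS5A01G382900.1), at 65.2 CPM with the others between 9.36 and 18.8 CPM, and of 5B (TraesCS5B01G387300.1), at 68.2 CPM with the others between 9.56 and 17.5 CPM. Replicate 4 also had 22.3% of its counts in the 3 most abundant transcripts, with the others between 17.7% and 18.3%. Replicate 1 of 4 DAT stood apart for the phosphatase TraesCS3D01G261300.1 (10.9 CPM, the others at 13.6 to 13.9), for L36, TraesCS1B01G294200.1 (15.2 CPM, the others at 13.7 to 13.9), and for the SPL factor TraesCS2D01G232800.1 (1.48 CPM, the others at 0.416 to 0.595). At 1 DAT, replicate 3 had 6.95% of its counts in TraesCS1A01G000100.1, with at most 0.0548% in the others, and replicate 4 had 11.3% in the 3 most abundant transcripts, with the others at 20.9% to 21.5%. Replicate 4 of 1 DAT was high for fructokinase-2, TraesCS3B01G397500.1 (9.18 CPM, the others at 3.89 to 4.60), replicate 1 for TatC, TraesCS3A01G193600.1 (97.2 CPM, the others at 68.7 to 70.7), and replicate 2 was the 1 library with any count for TraesCS4D01G141500.1 (0.598 CPM).

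The change between 1 and 4 DAT differed between heated and control leaves, by the test of the difference itself, for 11 named transcripts, of which 4 kept the call with the replicate block (the MurNAc tripeptide ligase, the RNA helicase, TraesCS4D01G141500.1 and TraesCS4A01G105000.2). On the log2 scale, heated minus control, the difference was -3.27 for fructokinase-2, -2.92 for the MurNAc tripeptide ligase (TraesCS1D01G211600.1), -1.76 for the RNA helicase, -1.41 for methionine--tRNA ligase, -1.27 for the lipase and -1.15 for both L36 and L5. It was 1.04 for phosphopantothenoylcysteine decarboxylase, 5.81 for TraesCS5A01G003700.1 and 5.30 for TraesCS4D01G141500.1. The fitted difference of -17.53 for TraesCS4A01G105000.2 rests on groups at 0 counts, depends on how the fit treats them and is no bound.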

How the results depend on the processing

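Against 3757 calls between 4 and 1 DAT in heated leaves, 2067 were made with total counts as the only scaling (17.5% of them higher, against 39.2%), 2405 with no filter, 5774 with DESeq2, 2208 with the libraries of the 2 groups alone, 2225 with the replicate block and 1057 without the 4 libraries rich in TraesCS1A01G000100.1; leaving out single heated libraries gave 2123 to 3816. In control leaves, 45 calls were made with DESeq2, 13 with the likelihood ratio test and 0 to 1 without single libraries (the 1 without control 4 DAT replicate 3), against 0. Against 1015 called differences, there were 556 with no filter, 2252 with DESeq2, 1730 with the likelihood ratio test, 500 with the 4 groups alone, 396 with the block, 264 without the 4 libraries and 578 to 1228 without single libraries; total counts gave 739, of which 2.30% were positive, against 16.7%. Calls at 0 DAT stayed within 1.5 times of 13231 throughout, but total counts moved the median of all transcripts there by about 0.5 (0.54, against 0.03 with TMM) and made 83.1% of them higher, against 45.2%; the control median moved to 0.11 with it. Opposite calls at 0 DAT and between 1 and 4 DAT numbered 2005, against 1273 with no filter, 3027 with DESeq2, 1320 with only the groups compared, 1268 with the block, 689 without the 4 libraries and 1257 to 2008 without single libraries; their share lay between 45.4% and 78.1% of the fallen and 41.0% and 59.0% of the risen transcripts. Summed per gene, TraesCS4A01G105000.2 went to 0.02 and TraesCS2D01G286200.7 to 0.69, the opposite sign, because other isoforms enter the sum. Of the 26 annotated calls, 12 passed with total counts, 12 with the 2 groups alone (24 had a value), 8 without the 4 libraries, 20 with the covariate and 21 with the block. The causes were not tested. Depth limits calls below 1 CPM.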
